A study of Mus musculus with 12 samples.

Results

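The libraries described here are 6 of the 12 in a series of mouse bone marrow-derived macrophages, and they were chosen by their labels alone: 3 libraries of Hdac3f/f cells given lipopolysaccharide (LPS) and 3 of Hdac3f/f cells left untreated. Marrow cells from mice 8 weeks old were grown in 10 ng/ml macrophage colony-stimulating factor (M-CSF) with 10% serum, then kept for 4 h in the same medium with 500 ng/ml LPS or with none. Both groups carry the floxed Hdac3 allele, in which loxP sites flank part of the gene, and no Cre, so they serve as the control genotype of the study. The other 6 libraries come from Lyz2-Cre-Hdac3f/f cells, in which Cre driven by Lyz2, a gene of myeloid cells, recombines the floxed allele. They enter the choice of tested genes, the scaling and the estimate of spread, but not the 2 groups compared. Reads were counted per gene, and 14286 of the 54532 genes in the table had enough counts to be tested. With the 6 Hdac3f/f libraries alone the same filter left 13373. The labels do not say whether the 3 libraries of a group come from separate animals or cultures, so p-values measure only the spread between these libraries.

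LPS is a lipid of the bacterial outer membrane. It is handed by the surface protein CD14 to MD-2 (gene Ly96), which sits on Toll-like receptor 4 (TLR4). The receptor signals through the adaptor MyD88 to the kinases that activate NF-kB and the AP-1 factors, and through the adaptor TRIF to the factors that switch on type I interferon. Interferon then acts back on the same cells through STAT factors and interferon regulatory factors (IRF). In macrophages the products are cytokines, chemokines, antimicrobial enzymes and feedback inhibitors, some made within minutes and others over hours.

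Depth was similar in all 6 libraries, at 17393187 to 18344895 counts each, as the deposited table gives them. Between 19425 and 21296 genes had a count in an untreated library and between 18159 and 19204 in an LPS library. Pairs of replicates correlated at 0.975 to 0.990 (Pearson r on log2 values across genes, which are not independent), yet the chi-square of their counts, divided by the number of genes, was 8.15 to 44.95, so no pair was 1 library deposited again. In a principal component analysis of the 6 libraries the first axis held 82.4% of the variance and separated the treatments. The second held 8.04%, with replicate 1 of both groups at one end (38.7 untreated and 28.2 with LPS) and untreated replicate 3 and LPS replicate 2 at the other (-29.6 and -30.4). All 10 macrophage markers were tested, and their summed level was 15285 to 18926 CPM (counts per 1000000 counts of the scaled library) untreated and 21573 to 23830 with LPS. Of these 10 genes 4 were called rising and 2 falling, with a median log2 fold change of 0.17 (-0.47 with library totals). Cd14, whose large rise is given below, is one of them. Markers of other cells were low by comparison. The sum over 8 neutrophil genes was 219 to 382 CPM untreated and 131 to 302 with LPS. Over 12 T and NK cell genes it was 206 to 355 and then 112 to 153, though 4 of them were called rising and 2 falling. The sum over 7 mast cell and basophil genes went from 47.0 to 49.3 CPM untreated to 117 to 167 with LPS, without overlap. Of these 7 genes, however, 2 were called rising, 1 of them past 2-fold, and their median log2 fold change was 0.35 (-0.29 with library totals). Over 7 endothelial genes the sum went from 64.6 to 122 CPM untreated to 117 to 137 with LPS. Their median log2 fold change was -0.39, and 1.34 without untreated replicate 1. Of 10 fibroblast and stromal genes 8 were tested, with sums of 288 to 1391 CPM untreated and 829 to 1696 with LPS. Untreated replicate 1 held the highest untreated value. Of these 8 genes 2 were called rising (median 0.95), and without untreated replicate 1 it was 7 (median 2.12). For 6 of 8 B and plasma cell markers, Ms4a1 among them, and for 6 of 9 erythroid and megakaryocyte markers counts were too few to test. The part of these other cells in the results below was not tested.

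Hdac3, the gene that the study targets in its other genotype, was read first. Hdac3 was at 36.3, 39.2 and 39.7 CPM in the 3 untreated libraries and 40.7, 39.1 and 38.7 CPM in the 3 LPS libraries. The groups overlapped and the gene was not called (log2 fold change 0.04 ± 0.09, edgeR adjusted p = 0.731). With library totals as the scale it was called falling, at -0.59.

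Most tested genes changed level within 4 h. In edgeR's quasi-likelihood test 8584 of 14286 genes (60.1%) were called at a Benjamini-Hochberg adjusted p under 0.05. Of these 3993 (28.0% of the tested genes) rose and 4591 (32.1%) fell. A stricter test, against a change of 2-fold, called 1594 rising genes (11.2%) and 1658 falling genes (11.6%), and for every one of these all 3 libraries of one group lay above all 3 of the other. Over all genes tested, 4043 had all LPS libraries above all untreated ones, 4724 had them all below, and 5519 overlapped. Very large changes leaned upwards: among called genes 528 rose and 322 fell by more than 8-fold, and 141 rose and 38 fell by more than 32-fold. They also differed by level. At 100 CPM or more (mean of the 6 libraries) 578 of 1982 genes rose and 85 fell past 2-fold, whereas at 1 to 10 CPM 312 of 4314 rose and 807 fell.

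These directions depend on how libraries of different make-up are put on one scale. The genes called rising past 2-fold held 9.96% to 10.7% of the counts in the untreated libraries and 33.8% to 35.6% in the LPS libraries; this follows from how they were picked and is a description only. The 100 most abundant genes of each library, picked without regard to direction, took 30.1% ± 1.62 of its counts untreated and 32.0% ± 1.58 with LPS (SD, n = 3), and the ranges overlapped (two-sided exact permutation p = 0.2, in a design that cannot go below 0.1). The top 500 took 48.4% to 52.5% untreated and 55.25% to 58.9% with LPS, without overlap. The trimmed mean (TMM) scaling of edgeR, which assumes that most genes do not change, gave factors of 1.12 to 1.26 to the untreated and 0.716 to 0.822 to the LPS libraries, and left the median log2 fold change of all genes at -0.08. With library totals alone the median was -0.72, with 2086 genes rising and 8242 falling, and with upper quartile scaling -0.31, with 3160 and 5850. Rising genes were thus 46.5% of the calls on the TMM scale, 20.2% with library totals and 35.1% with the upper quartile. All changes below are on the TMM scale and so relative to the bulk of genes; a smaller amount of RNA per cell, or fewer cells, cannot be told apart from a lower share of the counts. Where the value of a named gene or the median of a list changes sign with library totals, that value is given beside it. Counts of called members of a list or family stand against 28.0% rising and 32.1% falling of all tested genes.

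**Figure D1:**
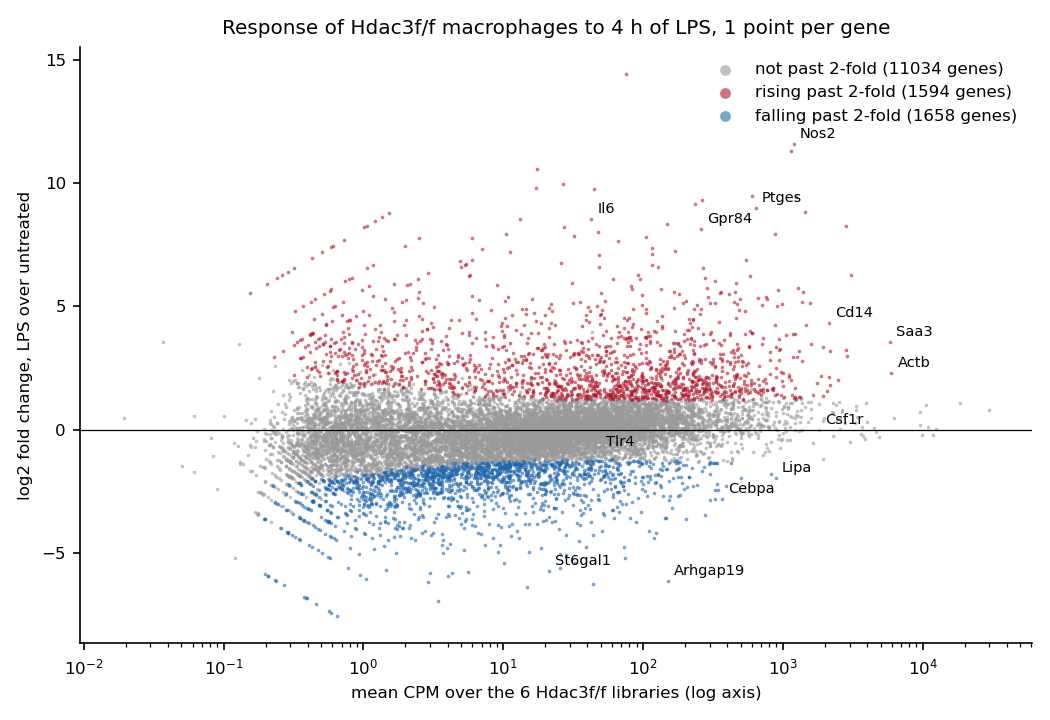
Log2 fold change (LPS over untreated, vertical) against mean CPM over the 6 Hdac3f/f libraries (horizontal, log axis), 1 point per tested gene. The 1594 genes rising past 2-fold (red) reach high levels on the right, while most of the 1658 falling genes (blue) sit at lower levels; diagonal streaks at the left are genes with a handful of counts.

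Among genes past 2-fold, the RNAs that gained most in amount per length coded for the LPS co-receptor, an acute phase protein, cytoskeletal proteins, antiviral proteins and chemokines. Cd14 (chromosome 18, 36725074 to 36726736, mm10) was at 172, 207 and 227 CPM in the 3 untreated libraries and 3713, 4328 and 4104 CPM in the 3 LPS libraries (log2 fold change 4.32 ± 0.23). Saa3 (chromosome 7, 46711998 to 46715700), a serum amyloid A protein of the acute phase, went from 847, 901 and 1007 to 9123, 10654 and 12373 CPM (3.54 ± 0.15). The groups were far apart for both genes. Marcksl1 (chromosome 4, 129513581 to 129515985), an actin-binding substrate of protein kinase C, rose from 78.3, 76.7 and 84.3 to 5034, 7689 and 5622 CPM (6.26 ± 0.22), which took it from rank 808 to rank 12 among protein-coding genes by RPKM (CPM per kilobase of gene length). Actb, cytoplasmic actin and a common reference gene, rose from 1839, 1981 and 2259 to 8651, 10818 and 10298 CPM (2.29 ± 0.13). The antiviral genes Ifitm3, whose membrane protein blocks virus entry, and Isg15, a ubiquitin-like modifier, rose by 1.55 ± 0.18 and 4.998 ± 0.22 on the log2 scale. For the chemokines Ccl3 and Ccl5 the rises were 5.11 ± 0.27 and 3.89 ± 0.39. The 2 highest genes by RPKM in both groups gained more in amount without passing 2-fold: Fth1, ferritin heavy chain, from 13626 to 28851 RPKM (1.08 ± 0.16), and Apoe, apolipoprotein E, from 10088 to 17701 RPKM (0.81 ± 0.15; 0.16 and not called with library totals), both named after their values were seen. By RPKM, 63 of the 100 highest genes were the same in both groups, and 35 of the 37 newcomers with LPS had risen past 2-fold.

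Among genes past 2-fold, those with the largest loss per length were led by lysosomal, lipid and secreted proteins. Lipa (chromosome 19, 34492318 to 34527474), the lysosomal acid lipase that frees cholesterol and fatty acids, was at 1321, 1425 and 1488 CPM untreated and 389, 359.8 and 344 CPM with LPS (-1.95 ± 0.09). Pla2g15, a lysosomal phospholipase, and Atp13a2, a lysosomal polyamine exporter, fell by 2.44 ± 0.14 and 1.79 ± 0.15 on the log2 scale. The transcription factor gene Cebpa went from 559, 679.6 and 677 to 56.7, 129 and 88.0 CPM (-2.81 ± 0.24); the groups stayed far apart. Selenop, the selenium carrier, went from 777, 782 and 817 to 207, 221 and 187 CPM, and Gas6, the bridge between dying cells and the receptors Axl and MerTK, from 552, 639.9 and 753 to 105, 182 and 111 CPM. Snx5, a sorting nexin of the endosome, and Dhrs3, a retinal reductase, completed the group, with changes of -2.79 ± 0.09 and -1.79 ± 0.16.

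The genes with the lowest p-values moved far relative to the spread of their replicates. Ptges (chromosome 2, 30889471 to 30929863), the prostaglandin E synthase, was at 3.04, 2.29 and 2.25 CPM untreated and 1207, 1469 and 1155 CPM with LPS (8.97 ± 0.17, edgeR adjusted p = 4.65e-12). Gpr84, a receptor for medium-chain fatty acids, rose from 1.82, 1.51 and 2.20 to 463, 560.2 and 535 CPM (8.14 ± 0.17). Il6 (chromosome 5, 30013114 to 30019981), interleukin 6, rose from 0.217, 0.146 and 0.307 to 95.1, 80.9 and 80.0 CPM (8.54 ± 0.19). Low levels in all 3 untreated libraries were common to these 3 genes, and no LPS library came near them. Traf1, an adaptor of TNF receptors, Cd40, the receptor for the T cell ligand CD154, and Rab11fip1, an effector of endosome recycling, started higher. They were between 13.5 and 16.3 CPM in the untreated libraries, where the median of tested protein-coding genes was 17.8 CPM. Their log2 fold changes were 5.57 ± 0.11, 6.25 ± 0.14 and 4.20 ± 0.10. On the falling side stood Arhgap19 (chromosome 19, 41766588 to 41802084), a GTPase-activating protein, at 328, 291 and 275 and then 4.66, 4.21 and 3.85 CPM. Slc46a3, a lysosomal membrane transporter, went from 74.7, 73.8 and 77.7 to 2.64, 2.81 and 2.98 CPM (-4.74 ± 0.12), and Sgsh, the lysosomal sulfamidase that degrades heparan sulfate, from 132, 139.8 and 151 to 4.38, 5.69 and 5.73 CPM (-4.74 ± 0.13). St6gal1, which adds sialic acid to N-glycans, fell by 5.73 ± 0.16, Slc37a2, a sugar phosphate exchanger, by 3.46 ± 0.11 and Gnpda1, which turns glucosamine phosphate into fructose phosphate, by 3.19 ± 0.10 on the log2 scale.

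**Figure D2:**
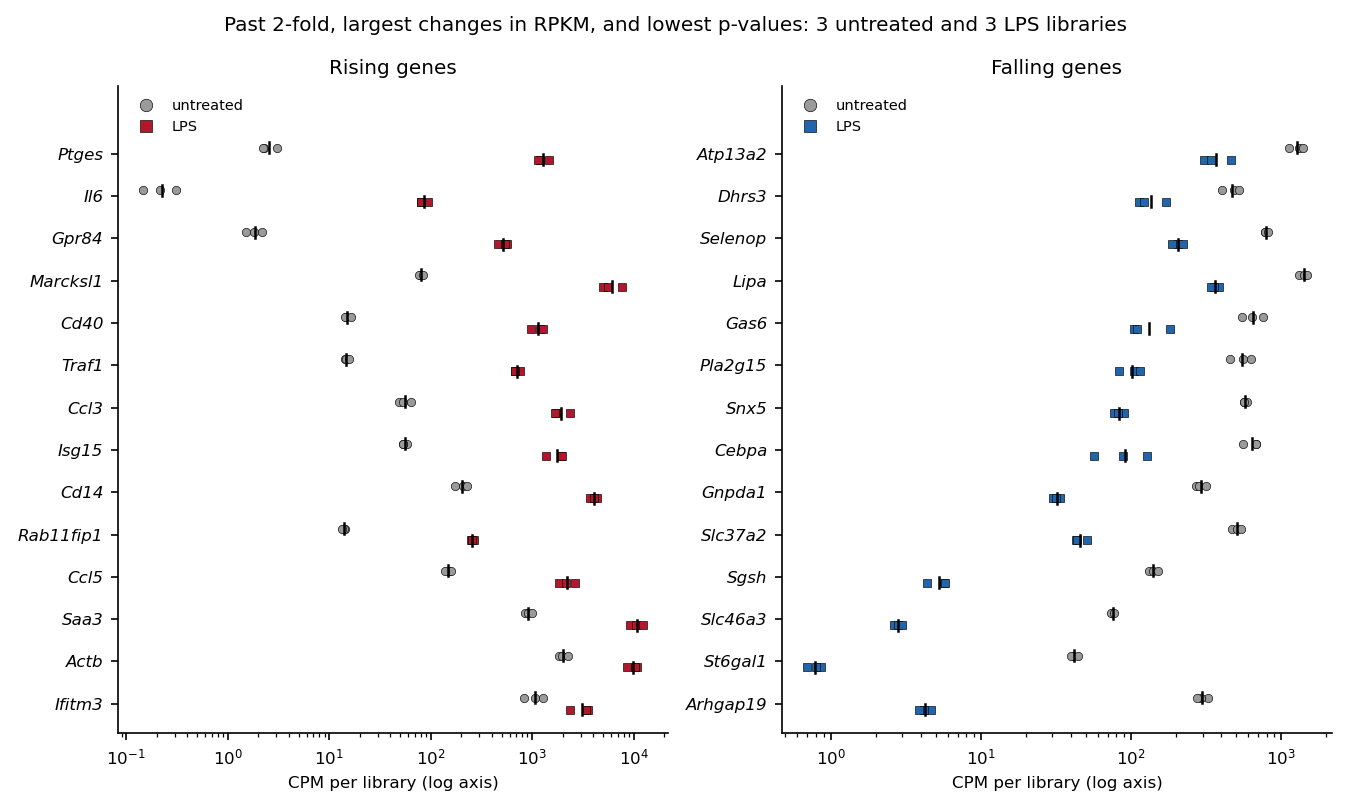
CPM (horizontal, log axis) in each of the 3 untreated (circles) and 3 LPS libraries (squares) of Hdac3f/f cells for the rising (left) and falling (right) genes with the largest change in RPKM among those past 2-fold, or with the lowest p-values; short bars are group means. In every gene shown the 2 groups are apart, with Ptges, Il6 and Gpr84 moving farthest among the rises and Arhgap19 among the falls.

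Promoter sequences of 4 of these genes are shown as examples of windows with and without the motifs searched. Each is the RefSeq window (GRCm38.p6, the assembly behind mm10) from 250 bases before to 50 bases after the gene start, 5′ to 3′ on the gene's strand, with matches in capitals. Searched on both strands were the NF-kB motif kB (10 bases), the interferon response element ISRE (GAAANNGAA) and the AP-1 site (TGANTCA). The Il6 window (chr5:30012864-30013163, plus strand) holds an AP-1 match that starts 249 bases before the gene start and a kB match at 44 bases before it. In Isg15 (chr4:156200769-156201068, minus strand) 3 ISRE matches overlap, starting 78, 72 and 66 bases before the start. Ifitm3 (chr7:141010695-141010994, minus strand) has a kB match, an AP-1 match and 2 ISRE matches, the last starting at base 19 after the start. Arhgap19 (chr19:41802035-41802334, minus strand), a falling gene, has none of the 3. Among the genes chosen by change in RPKM or lowest p that have a window, 5 of 9 rising and 2 of 13 falling ones hold a match. Rising Marcksl1, Ptges, Traf1 and Gpr84 hold none, while falling Selenop has an ISRE match and Slc37a2 an AP-1 match. The RefSeq start behind the Ptges window lies 26566 bases from the start of the gene model in the counts, and that of Selenop 2220 bases.
Il6: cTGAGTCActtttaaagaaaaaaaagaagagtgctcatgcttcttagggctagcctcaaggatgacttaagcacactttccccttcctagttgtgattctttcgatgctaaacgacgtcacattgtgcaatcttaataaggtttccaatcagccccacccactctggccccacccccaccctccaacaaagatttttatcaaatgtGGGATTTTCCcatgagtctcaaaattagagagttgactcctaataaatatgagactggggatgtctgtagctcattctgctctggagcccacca
Isg15: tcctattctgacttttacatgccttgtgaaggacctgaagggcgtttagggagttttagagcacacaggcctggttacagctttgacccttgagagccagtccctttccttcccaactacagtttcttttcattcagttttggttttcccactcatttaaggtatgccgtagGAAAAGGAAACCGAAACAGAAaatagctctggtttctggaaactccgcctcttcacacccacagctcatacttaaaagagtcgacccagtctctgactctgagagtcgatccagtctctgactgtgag
Ifitm3: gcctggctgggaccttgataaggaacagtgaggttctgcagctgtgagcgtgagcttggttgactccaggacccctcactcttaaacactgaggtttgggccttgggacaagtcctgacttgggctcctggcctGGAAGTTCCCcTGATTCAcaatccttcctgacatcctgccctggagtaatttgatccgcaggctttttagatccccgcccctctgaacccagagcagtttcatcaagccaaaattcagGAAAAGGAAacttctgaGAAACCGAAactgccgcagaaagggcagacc
Arhgap19: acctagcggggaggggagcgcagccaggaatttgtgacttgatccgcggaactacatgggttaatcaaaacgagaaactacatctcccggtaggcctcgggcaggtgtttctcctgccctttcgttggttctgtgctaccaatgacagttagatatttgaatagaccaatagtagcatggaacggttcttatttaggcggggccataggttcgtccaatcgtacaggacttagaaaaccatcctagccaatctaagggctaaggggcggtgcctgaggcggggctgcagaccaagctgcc

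A RefSeq window was found for 9883 of 12039 tested protein-coding genes on the chromosomes that the sequence table covers (82.1%). A kB match stood in 10.4% of all these windows, in 14.7% of the 1109 windows of genes rising past 2-fold and in 10.1% of the 1187 of falling genes. For the ISRE the shares were 7.45%, 12.98% and 4.89%, and for AP-1 4.93%, 8.57% and 4.38%. Among the 96 windows of genes whose log2 fold change was above 5, the shares were 20.8% for kB, 15.6% for ISRE and 16.7% for AP-1. A TATA box (TATAAA, gene's strand only) was in 4.46% of all windows, 8.12% of rising, 3.71% of falling and 21.9% of the steepest rising ones, and in 0 of 73 windows of genes held at their level, meaning at least 100 CPM and a 95% interval of the fold change between 0.8 and its inverse. The E2F motif (TTTCCCGC), which can overlap a kB match, went the other way, with 1.44% of rising and 3.29% of falling windows against 2.22% of all, and so did CCAAT, with 34.8%, 44.7% and 38.9%. For the cAMP element CRE (TGACGTCA) the shares were 2.89%, 2.53% and 3.24%. Windows of the steepest rising genes also held fewer CpG pairs, with a median of 6.5 against 21 over all windows, and those genes were shorter, with a median of 5 exons and a span of 9597 bases against 9 exons and 23412 bases. Falling genes had a median of 10 exons and 30614.5 bases. The steepest rising genes started from a median of 0.983 CPM, against 17.8 CPM over all, which follows partly from picking them by fold change. These shares describe letters in a window; binding was not measured.

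**Figure D3:**
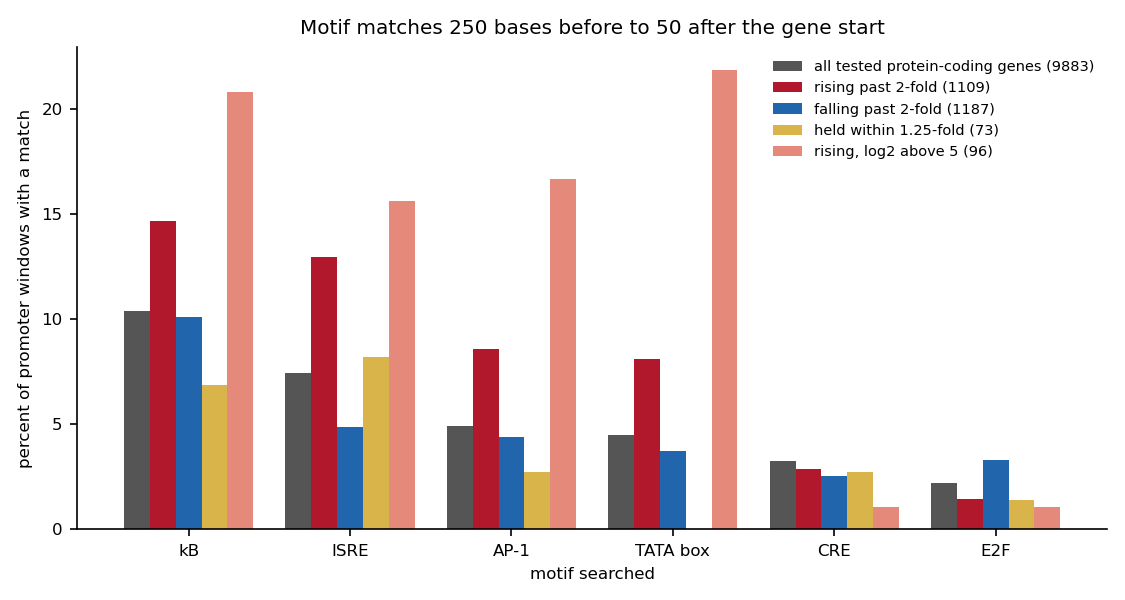
Percent of RefSeq promoter windows (vertical) with at least 1 match to each motif (horizontal), by class of gene, with the number of windows in brackets. kB, ISRE, AP-1 and TATA box matches are most frequent in the 96 windows of genes with a log2 fold change above 5, while CRE and E2F matches are not.

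MicroRNA genes were among the changes. Among noncoding genes that hold a RefSeq microRNA hairpin on their strand, 27 were tested, of which 6 rose and 1 fell past 2-fold (against 11.2% and 11.6% of all tested genes). The main mature products of 5 of them are printed because a microRNA finds its targets by its seed (bases 2 to 8, in capitals). All are RefSeq sequences, 5′ to 3′. The counts are of reads over the host or precursor gene, so the mature microRNA itself was not measured. No 2 of the sequences share a seed.
miR-155-5p: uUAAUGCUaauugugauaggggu
miR-146a-5p: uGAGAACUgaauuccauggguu
miR-221-3p: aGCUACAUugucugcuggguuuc
miR-22-3p: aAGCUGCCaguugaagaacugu
miR-223-3p: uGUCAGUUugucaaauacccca

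Mir155hg (chromosome 16, 84703167 to 84715245), the host of miR-155, a microRNA known to promote inflammatory responses, was at 0.0867, 0.0973 and 0 CPM untreated and 37.0, 17.9 and 24.5 CPM with LPS (log2 fold change 8.56 ± 0.44). Its hairpin lies at 84714140 to 84714204 on the plus strand, inside the host. Mir146, the gene model of miR-146a, which restrains TRAF6 and IRAK1, was at 0.173, 0.0487 and 0.102 and then 0.625, 1.01 and 0.726 CPM (2.76 ± 0.50), on 7 and 32 counts in all. Mir221 had 3 counts untreated and 26 with LPS, a ratio of 13.4 (95% interval 4.09 to 68.9, counting error only). Mir22hg rose from 13.9, 14.4 and 12.3 to 72.3, 46.8 and 50.1 CPM (2.06 ± 0.16). The falling one was F630028O10Rik, an antisense-type transcript that holds the hairpin of miR-223, a microRNA of the myeloid lineage, at 15.7, 13.9 and 12.1 and then 4.17, 3.82 and 4.79 CPM (-1.70 ± 0.17). Groups did not overlap for any of these 5; Mir146, Mir221 and F630028O10Rik were named after their values were seen. Of 22 tested microRNA hosts and long noncoding RNAs 5 rose and 10 fell. The 5 include AW112010 (4.39 ± 0.23) and, beside the cyclooxygenase gene Ptgs2, Ptgs2os2 (6.60 ± 0.42) and Ptgs2os, which had 0 counts untreated and 100 with LPS, at least 51.3-fold higher if 3 counts over the group stand in for the 0. Whether counting used the strand is not given in the sources used here, so antisense transcripts are uncertain.

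Sensors of bacteria and viruses moved in both directions, with the LPS receptor itself among the falls. Of 30 tested genes of the LPS receptor and TLR signalling 18 rose and 4 fell (60.0% and 13.3%, against 28.0% and 32.1% of all genes), with a median log2 fold change of 0.90; with library totals 13 rose and 12 fell. Tlr4 was at 71.7, 64.2 and 57.3 CPM in the 3 untreated libraries and 40.8, 29.0 and 33.2 CPM in the 3 LPS libraries, a change of -0.91 ± 0.13. Tlr13, a sensor of bacterial ribosomal RNA, fell by 1.35 ± 0.15, Tab1 by 0.77 ± 0.12, and Tlr5, the flagellin receptor, had 76 counts untreated and 0 with LPS, at least 16.4-fold lower. The parts next to TLR4 rose: Cd14 as above, Ly96 from 9.72, 10.5 and 9.10 to 20.2, 20.7 and 20.9 CPM (1.07 ± 0.11) and Myd88 from 67.3, 73.2 and 83.9 to 334, 459.5 and 439 CPM (2.46 ± 0.14). Other rises were Tlr2, the lipoprotein receptor (3.11 ± 0.14), the kinase Irak2 (3.41 ± 0.12) and Ikbke, the kinase upstream of IRF3 (2.56 ± 0.13). Among 15 cytosolic sensors 12 rose and 2 fell. The peptidoglycan sensor Nod2 rose from 9.39 ± 0.828 to 147 ± 4.23 CPM (3.97 ± 0.10), Nod1 by 2.65 ± 0.11 and their shared kinase Ripk2 by 3.16 ± 0.14, while Mavs, the mitochondrial adaptor of the RNA sensors, fell by 1.17 ± 0.10 and Nlrx1, a mitochondrial NOD-like protein, by 0.43 ± 0.12; Nlrx1 was not called in the fit of the 6 libraries alone (-0.42, adjusted p = 0.0588). Tmem173, which encodes STING, was the member not called (0.40 ± 0.17), but several alternatives called it: it passed without LPS replicate 1 (0.55) or LPS replicate 2 (0.48), with DESeq2 or its size factors (0.47 each), without a filter on low counts (0.39) and with a replicate block (0.37), and was at -0.24 with library totals.

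MAP kinases and the phosphatases that oppose them held more rises than falls on the TMM scale. In the list of MAP kinases and dual specificity phosphatases 15 of 26 tested members rose and 2 fell (median 0.56; with library totals -0.07, 10 rising and 9 falling). Dusp2, a nuclear phosphatase of MAP kinases, was at 6.77 ± 0.462 to 329 ± 64.2 CPM (5.60 ± 0.21), Dusp16 rose by 4.22 ± 0.20, Dusp1 by 3.84 ± 0.19 and the kinase Map2k1 by 2.07 ± 0.09. Mapk14, the main p38 kinase of macrophages, fell by 0.60 ± 0.10, as did Dusp3, by 0.90 ± 0.15. Regulators of RNA decay split within one family: of 23 tested, 10 rose and 2 fell (median 0.26; with library totals -0.38, 5 rising and 11 falling). Zc3h12a, the RNase Regnase-1 that destroys cytokine transcripts, rose from 16.7, 19.7 and 18.7 to 348, 479 and 404 CPM (4.48 ± 0.14), and Zfp36, tristetraprolin, rose by 3.33 ± 0.16. Its paralogs went the other way: Zfp36l1 went from 275, 255 and 251 to 58.2, 66.0 and 76.2 CPM (-1.96 ± 0.20) and Zfp36l2 from 407, 407 and 395 to 152, 207 and 179 CPM (-1.17 ± 0.11).

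Transcription factors of the interferon pathway mostly rose. Of 19 IRF, STAT and Janus kinase genes 16 rose (84.2%) and none fell, with a median of 1.51; with library totals 13 rose and 2 fell. Irf1 was at 74.0 ± 4.53 to 1133 ± 164 CPM (3.94 ± 0.16), Jak2 at 33.8 ± 9.92 to 299.7 ± 93.0 CPM (3.15 ± 0.24), Stat3 rose by 2.67 ± 0.11 and Stat2 by 1.72 ± 0.12. The 3 members not called were Irf4 (0.29 ± 0.31), Stat6 (-0.02 ± 0.08) and Jak1 (0.30 ± 0.18), and Jak1 was called without untreated replicate 1 (0.49) or LPS replicate 2 (0.45) and with a replicate block. With library totals Irf4 and Jak1 were at -0.33 and -0.34, not called, and Stat6 was called falling at -0.66, as it was with the upper quartile (-0.25). C/EBP, ATF and Batf factors divided, with 8 of 19 rising and 5 falling. Cebpd rose from 13.1, 14.7 and 16.7 to 145, 287 and 153 CPM (3.72 ± 0.25), opposite to Cebpa above, Batf2 and Batf rose by 4.88 ± 0.17 and 3.47 ± 0.14, and Batf3, Atf5, Atf6 and Cebpg fell by 1.13 ± 0.25, 1.02 ± 0.18, 0.76 ± 0.13 and 0.40 ± 0.10. Among 22 transcription factors of the macrophage lineage 13 rose and 5 fell. The falls included Mef2c (from 51.1, 36.3 and 30.4 to 4.03, 3.43 and 2.61 CPM, -3.54 ± 0.28), Fli1 (-2.06 ± 0.15), Tfeb, the regulator of lysosome genes (-1.65 ± 0.17), and Maf (-0.43 ± 0.10). By the family names that the authors' table gives, 870 factors were tested and 231 rose and 349 fell. The C2H2 zinc fingers account for much of the falls, with 60 of 399 rising and 210 falling (median -0.74), while 7 of 8 IRF, 6 of 7 STAT and 6 of 10 Rel homology factors rose. By symbol, 181 of 316 Zfp genes fell and 35 rose (57.3% and 11.1%; median -0.83), and 63 fell past 2-fold (19.9%, against 11.6% of all tested genes).

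Chemokines had the highest median of the lists counted here, while receptors moved in both directions. All 18 called members of 22 tested CC and CXC chemokines rose (median 4.96), and 16 did so past 2-fold. Cxcl10, which draws activated T cells, went from 4.94, 2.92 and 3.02 to 2009, 2379 and 3108 CPM (9.42 ± 0.37) and Cxcl2, which draws neutrophils, from 1.13, 0.535 and 0.767 to 592, 604 and 382 CPM (9.31 ± 0.37). The monocyte attractants Ccl7 and Ccl2 rose by 6.04 ± 0.26 and 5.36 ± 0.25. Of 19 receptors for chemokines and other attractants 9 rose and 6 fell (median 0.65; 0.01 with library totals). The formyl peptide receptors Fpr1 and Fpr2, which guide cells to bacterial peptides, rose by 5.50 ± 0.17 and 5.56 ± 0.16, Ccrl2, a receptor that presents chemerin, by 5.96 ± 0.23 and Ccr7, the lymph node homing receptor, by 3.23 ± 0.24. Falls included the monocyte receptor Ccr2 from 45.8, 23.3 and 20.7 to 3.75, 2.10 and 5.66 CPM (-2.96 ± 0.50), Cxcr4 from 121, 100.3 and 113 to 25.1, 21.8 and 31.7 CPM (-2.09 ± 0.20), and Cxcr3, a receptor known from activated T and NK cells, and Cx3cr1, the fractalkine receptor, by 2.84 ± 0.26 and 1.92 ± 0.37. The summed T and NK cell markers were lower too, at 206 to 355 CPM untreated and 112 to 153 with LPS. Of these 12 markers, however, 4 were called rising and 2 falling, with a median of 0.30 (-0.34 with library totals). The part of T and NK cells in the falls was not tested.

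Receptors for nucleotides, lipids and metabolites moved in both directions, some from near 0 CPM. Of 31 tested 13 rose and 10 fell, and the median was 0.22 (-0.42 with library totals). Gpr84 led the rises, as above, with Hcar2, the receptor for nicotinic acid and butyrate-like acids (1.65 ± 0.661 to 229 ± 40.5 CPM, 7.13 ± 0.28), and Adora2a, the adenosine receptor that dampens inflammation (8.24, 7.01 and 7.77 to 462, 669.7 and 503 CPM, 6.15 ± 0.17). The lysophosphatidic acid receptor Lpar5 went from 23.3, 31.4 and 34.4 to 1.11, 1.17 and 0.581 CPM (-4.95 ± 0.25), Lpar6 changed by -3.27 ± 0.26, and P2rx7, the ATP-gated channel that triggers the inflammasome, went from 98.6, 84.2 and 82.7 to 17.1, 14.3 and 16.3 CPM (-2.48 ± 0.11). Cytokine and growth factor receptors mostly rose, with 18 of 30 rising and 5 falling. Tnfrsf1b, a TNF receptor, went from 549.9 ± 46.0 to 5116 ± 153 CPM (3.22 ± 0.11), Il17ra rose by 3.00 ± 0.12 and Csf3r, the receptor for granulocyte colony-stimulating factor, by 1.99 ± 0.09. The 5 falls were Tgfbr2 (from 317, 275 and 292 to 75.6, 75.7 and 79.8 CPM, -1.94 ± 0.09), Tgfbr1 (-0.69 ± 0.24), the shared signalling chain Il6st (-1.499 ± 0.16), Ifngr1 (-1.32 ± 0.14) and Il6ra (-0.92 ± 0.10). Tgfbr1 was not called without untreated replicate 1, LPS replicate 2 or LPS replicate 3 (-0.50, -0.45 and -0.66) or with the 6 libraries alone (-0.68, adjusted p = 0.0556). In the TGF-beta, SMAD and activin list 13 of 25 rose and 3 fell (median 0.62; -0.02 with library totals): Skil, which blocks SMADs, rose by 2.56 ± 0.25 and Tgif1, a SMAD corepressor, by 1.55 ± 0.09, while Smad3 fell by 1.33 ± 0.15.

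Costimulatory genes mostly rose, and genes of cell death and survival moved in both directions. Of 20 costimulatory and TNF superfamily genes 14 rose and 3 fell, with a median of 1.99. Cd69, an early activation marker, was at 2.23 ± 0.362 to 229.6 ± 17.0 CPM (6.68 ± 0.16), and the TNF family ligands Tnfsf9 and Tnfsf15 rose by 5.08 ± 0.22 and 4.81 ± 0.20. Vsir, the inhibitory ligand VISTA, went from 510.2, 547 and 615 to 128, 128 and 111 CPM (-2.19 ± 0.13), and Tnfsf12 and Tnfsf13 fell by 1.40 ± 0.15 and 1.43 ± 0.27. Among 27 cell death and survival genes 17 rose and 3 fell. The rises with the lowest p were the survival genes Bcl2a1a (6.12 ± 0.14), Bcl2a1d (5.14 ± 0.16) and Bcl2a1b (3.63 ± 0.13), near-identical copies whose reads may be shared, and the death receptor Fas (3.24 ± 0.17). The 3 falls held the pro-apoptotic Bmf (from 20.9, 21.8 and 22.7 to 0.625, 1.01 and 1.60 CPM, -4.33 ± 0.24) and Bcl2l11, which encodes BIM (-1.27 ± 0.09), and also the survival gene Bcl2 (-1.41 ± 0.16). In the Notch list 10 of 21 rose and 5 fell (median 0.60; -0.04 with library totals), led by Notch1 (2.67 ± 0.14), Jag1 (3.13 ± 0.18) and Dtx2 (3.53 ± 0.18).

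**Figure D4:**
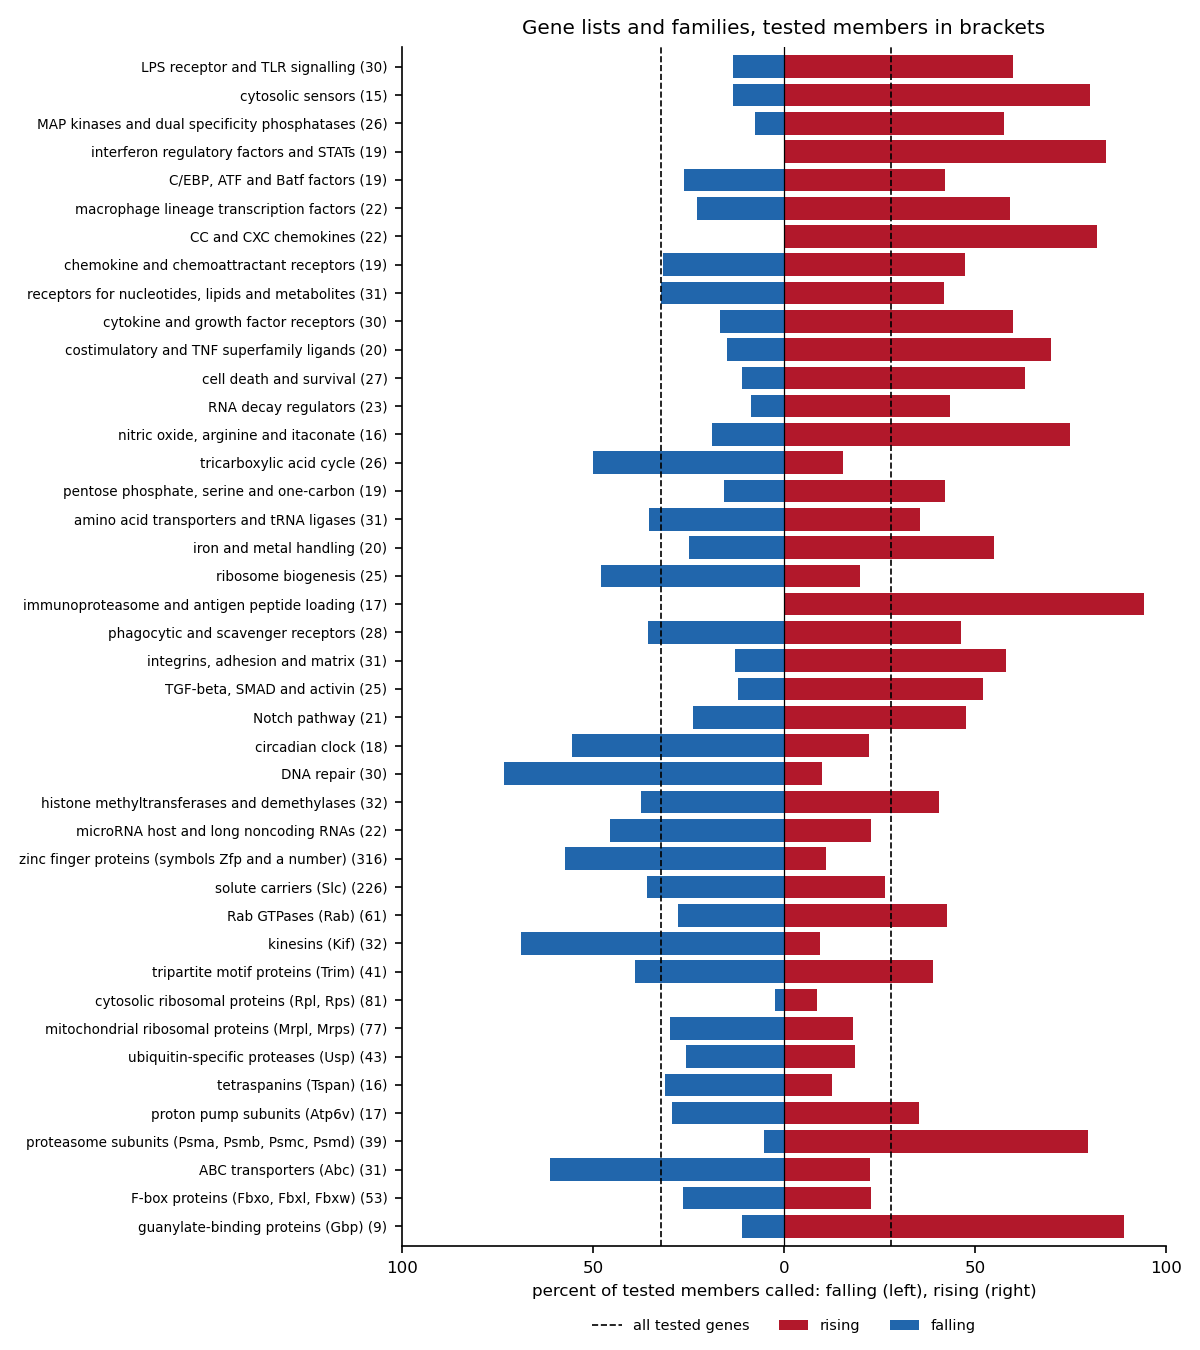
Percent of tested members called rising (red, right) and falling (blue, left) on the TMM scale for each gene list and family described here, with the number tested in brackets; dashed lines mark the 28.0% and 32.1% of all tested genes. Chemokines, IRF and STAT factors and peptide loading genes have no falling member, and DNA repair genes, kinesins and zinc fingers lean to falls; with library totals the medians of several lists near 0, ribosomal proteins among them, change sign.

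Nitric oxide synthesis showed opposite changes along one pathway. Of 16 tested genes of nitric oxide, arginine and itaconate metabolism 12 rose and 3 fell, with a median of 1.68. Gch1, the first enzyme of tetrahydrobiopterin, the cofactor of the nitric oxide synthase Nos2, went from 15.2, 20.4 and 20.9 to 354, 598 and 519.6 CPM (4.70 ± 0.23). The 3 falls were the next 2 enzymes of the same synthesis, Pts (18.4, 15.2 and 11.5 to 10.6, 6.55 and 6.10 CPM, -0.96 ± 0.22) and Spr (26.5, 34.3 and 39.8 to 13.7, 19.9 and 15.1 CPM, -1.05 ± 0.18), and Qdpr, which regenerates the cofactor (-0.72 ± 0.13). Ass1, which rebuilds arginine from citrulline, rose by 3.97 ± 0.18. Acod1, which makes itaconate from the cycle intermediate aconitate, went from 22.6, 17.9 and 14.1 to 6256, 4956 and 5763 CPM (8.28 ± 0.22). Of 26 tricarboxylic acid cycle genes 13 fell and 4 rose, with a median of -0.30, and none rose past 2-fold. The isocitrate dehydrogenases Idh1 and Idh2 went from 164, 158 and 161 to 25.9, 24.3 and 19.7 CPM (-2.79 ± 0.12) and from 60.6, 64.6 and 81.6 to 16.1, 20.8 and 17.0 CPM (-1.94 ± 0.14), Sdha, the subunit of succinate dehydrogenase that itaconate inhibits, fell by 0.92 ± 0.09, and the citrate exporter Slc25a1 rose by 1.04 ± 0.16. In the pentose phosphate, serine and one-carbon list 8 of 19 rose and 3 fell (median 0.10; -0.54 with library totals), with Pgd, which yields NADPH, rising by 1.24 ± 0.14 and Mthfd1 falling by 1.68 ± 0.14. In the list of amino acid transporters and the ligases that charge tRNA, 5 of 11 transporters rose and 1 fell, and 6 of 20 ligases rose and 10 fell; over the whole list the median was 0.11, and with library totals it was -0.53, with 5 rising and 17 falling. Slc7a11, the cystine importer, rose by 4.41 ± 0.28 and Slc43a2, a carrier of large neutral amino acids, fell by 2.43 ± 0.14; among ligases Wars, for tryptophan, rose by 1.70 ± 0.12 and Dars, for aspartate, fell by 0.96 ± 0.11.

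Iron genes moved in both directions, and the exporter and the main importer both fell. Of 20 tested 11 rose and 5 fell (median 0.58; -0.06 with library totals). The exporter ferroportin, Slc40a1, went from 140.1, 122 and 117 to 19.5, 11.4 and 16.2 CPM (-3.01 ± 0.19), the transferrin receptor Tfrc from 159.8, 183 and 153 to 39.5, 27.0 and 27.9 CPM (-2.39 ± 0.15) and the endosomal ferrireductase Steap3 from 41.7, 72.1 and 74.4 to 3.34, 4.83 and 5.37 CPM (-3.80 ± 0.25). Ncoa4, which delivers ferritin to the lysosome, fell by 2.13 ± 0.12 and the metallothionein Mt1 by 0.70 ± 0.18. Rises included Lcn2, which captures bacterial iron carriers (from 13.6, 13.04 and 16.2 to 444, 409 and 554 CPM, 5.04 ± 0.16), Hp, haptoglobin (3.81 ± 0.44), and the zinc and iron importer Slc39a14 (3.40 ± 0.12). Phagocytic and scavenger receptors were likewise split, with 13 of 28 rising and 10 falling (median 0.37; -0.28 with library totals). Clec4e, the mycobacterial glycolipid receptor Mincle, went from 45.4, 51.6 and 44.7 to 2822, 2531 and 2240.1 CPM (5.74 ± 0.16), Trem1 rose by 5.85 ± 0.26, and the scavenger receptors Marco and Msr1 by 2.73 ± 0.21 and 1.86 ± 0.11. Mrc1, the mannose receptor, went from 354, 273 and 222 to 100.4, 56.6 and 68.8 CPM (-1.91 ± 0.21), Lrp1 from 2132, 2897 and 3047 to 991, 1355 and 1228 CPM (-1.18 ± 0.15), and Cd36 and Scarb1 fell by 1.28 ± 0.18 and 0.84 ± 0.14. Adhesion and matrix genes rose in 18 of 31 and fell in 4 (median 0.67; 0.04 with library totals), with Icam1 (38.0 ± 2.29 to 1501 ± 192 CPM, 5.30 ± 0.15), Itga5 (3.66 ± 0.14), Sdc4 (3.90 ± 0.12) and the membrane protease Mmp14 (2.98 ± 0.13) at the lowest p, and Itga6, Itgb5, Timp2 and Plau falling by 2.54 ± 0.28, 1.94 ± 0.11, 1.28 ± 0.17 and 0.78 ± 0.12.

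**Figure D5:**
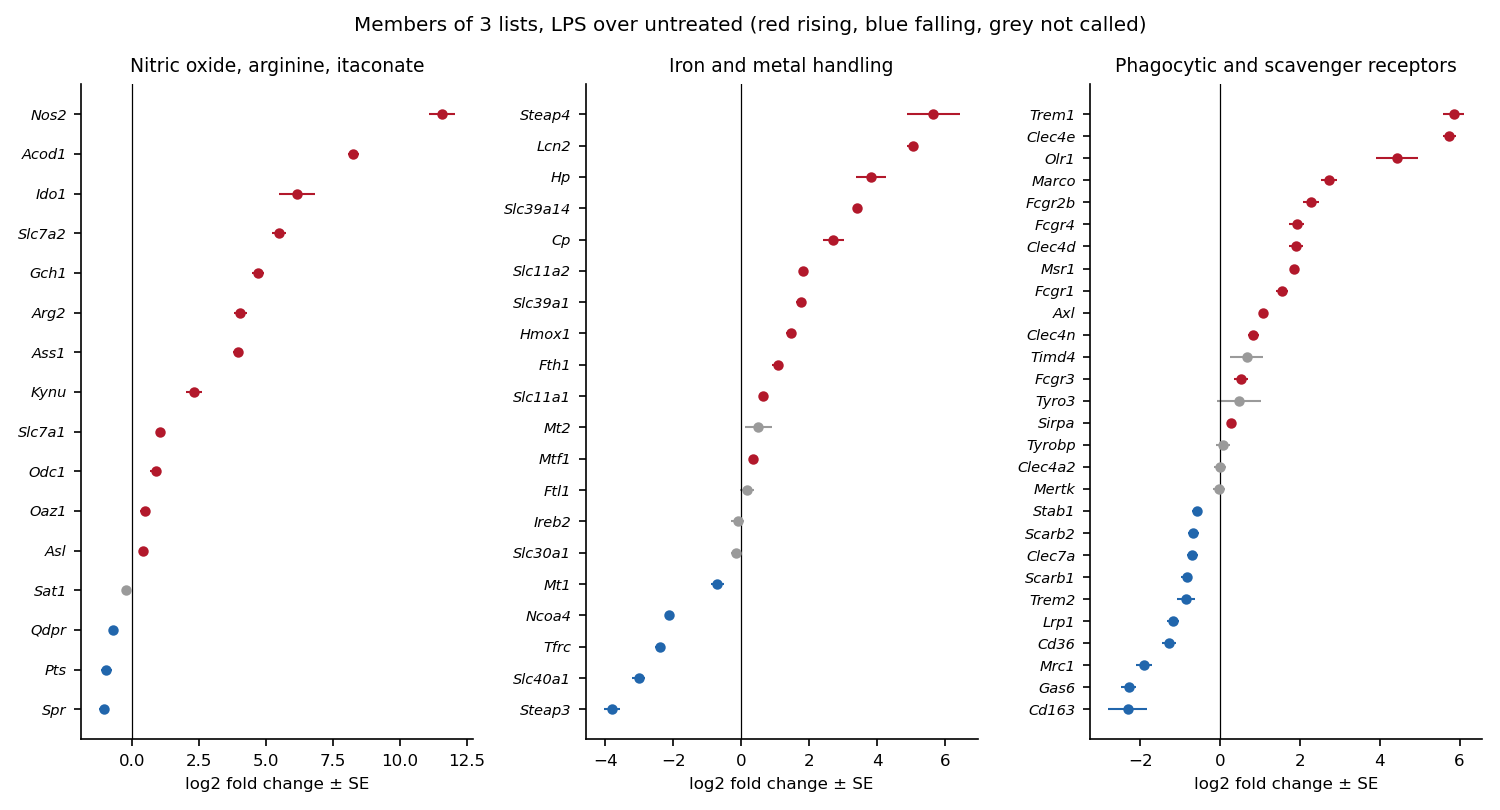
Log2 fold change ± SE (horizontal, TMM scale) of every tested member of 3 lists, 1 row per gene, with genes called rising in red, falling in blue and not called in grey. Nos2 and Acod1 stand at one end and Pts, Spr and Qdpr at the other on the left; Slc40a1, Tfrc and Steap3 fall in the middle panel; Gas6 and Mrc1 fall and Trem1 and Clec4e rise on the right. With library totals the medians of the middle and right lists change sign.

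Peptide loading genes had the highest share of rising members of the lists counted here. All 16 called members of 17 immunoproteasome and peptide loading genes rose (median 1.68), and Erap1 was the one not called (0.18 ± 0.16; -0.45 with library totals). Psme2, an activator of the proteasome, went from 67.1, 81.0 and 92.8 to 575, 706 and 717 CPM (3.05 ± 0.17); its copy Psme2b may share reads. Psmb10, a catalytic subunit of the immunoproteasome, rose by 2.47 ± 0.17 and the peptide pump Tap2 by 2.54 ± 0.13. Of all 39 genes with proteasome subunit symbols (Psma to Psmd), the immunoproteasome's Psmb8, Psmb9 and Psmb10 included, 31 rose and 2 fell (median 0.75; 0.12 with library totals, 18 rising and 10 falling), such as Psma6 (1.94 ± 0.10) and Psmd7 (1.09 ± 0.09). Of 9 guanylate-binding proteins, GTPases that attack the vacuoles of microbes, 8 rose, with Gbp5 at 9.15 ± 3.86 to 1086 ± 218 CPM (6.88 ± 0.34), and Gbp8 fell by 1.18 ± 0.21.

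Genes of DNA repair and of transport along microtubules were mostly lower. Of 30 DNA repair genes 22 fell and 3 rose, with a median of -1.59. The mismatch repair gene Msh6 went from 12.7, 10.6 and 11.97 to 4.24, 2.81 and 4.50 CPM (-1.60 ± 0.17), Xpc, which finds damage for nucleotide excision repair, fell by 1.84 ± 0.13 and Xrcc1, a scaffold of strand break repair, fell by 1.59 ± 0.12. The 3 rises were small: Polb, the base excision polymerase, rose by 0.75 ± 0.09, Fanca by 0.80 ± 0.19 and Ercc1 by 0.48 ± 0.17. None of them was called with library totals, where Ercc1 was at -0.17, and Ercc1 also was not called without untreated replicate 1 or 2 (0.47 each) or LPS replicate 2 (0.29). Of 32 kinesins 22 fell and 3 rose (median -1.41), with Kif23, a motor of cell division, at -2.74 ± 0.22 and Kif13b, which carries vesicles, at -1.78 ± 0.12, and Kif3c rising by 2.24 ± 0.16. ABC transporters fell in 19 of 31 and rose in 7 (median -0.85); Abcc3, an exporter of conjugates, went from 194, 202 and 204 to 51.5, 67.1 and 51.0 CPM (-1.82 ± 0.14) and Abcc1 rose by 1.69 ± 0.13. Clock genes fell in 10 of 18 and rose in 4 (median -0.71): the output factors Dbp and Tef went from 45.8, 51.0 and 52.7 to 1.251, 1.09 and 0.726 CPM (-5.60 ± 0.22) and from 66.5, 73.3 and 75.1 to 8.27, 10.1 and 7.62 CPM (-3.05 ± 0.15), and the repressor Cry1 rose by 1.87 ± 0.17. Ribosome biogenesis genes fell in 12 of 25 and rose in 5 (median -0.43), with Npm1, nucleophosmin, falling by 0.90 ± 0.12 and Wdr12 by 1.97 ± 0.18. Histone methyltransferases and demethylases were split, 13 rising and 12 falling of 32 (median 0.23; -0.40 with library totals); the demethylase Kdm6b rose by 2.52 ± 0.14 and the methyltransferases Setdb1 and Ehmt1 fell by 1.31 ± 0.14 and 1.08 ± 0.14.

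Among 1982 genes at 100 CPM or more, 469 were not called, and 95 (4.79%) had a 95% interval of the fold change that lay between 0.8 and its inverse. The median SE at this level was 0.132, which makes a typical interval nearly as wide as those limits, so the number held is bounded by precision and does not count the genes that stayed level. The most abundant of them per length were Ctsb and Lgmn, lysosomal proteases (0.01 ± 0.12 and 0.02 ± 0.12), Lamp1, a lysosomal membrane protein (-0.01 ± 0.10), Csf1r, the M-CSF receptor (-0.03 ± 0.10), Ptma, a nuclear acidic protein (-0.02 ± 0.11), and Ybx1, an RNA-binding protein (0.01 ± 0.10). Csf1r was at 1814, 1761 and 1918 CPM in the 3 untreated libraries and 1759, 1903 and 1730.3 CPM in the 3 LPS libraries. With library totals Ctsb, Lgmn and Ybx1 were called falling (-0.62, -0.62 and -0.64), and so were Lamp1, Csf1r and Ptma (-0.65, -0.67 and -0.66). Csf1r was also called falling with upper quartile scaling (-0.25). A fit of the 6 libraries alone held 24 genes. Without untreated replicate 2 or 3 or LPS replicate 3 the number held was 44, 61 or 55. Cytosolic ribosomal proteins had the lowest share of called members among the pathway lists and families: 72 of 81 were not called, 7 rose and 2 fell (median 0.17). With library totals 0 rose and 59 fell (median -0.47).

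Replicates were far apart for some of the changed genes. The rises with the widest spread among LPS libraries at 10 CPM or more were Fpr3, a formyl peptide receptor (6.11, 4.99 and 20.5 CPM), Slamf1 (20.4, 9.12 and 31.3 CPM), Zfp811 (20.2, 7.56 and 7.77 CPM), the protease inhibitor Serpina3g (162, 191 and 442 CPM), Hp (135, 142 and 351 CPM) and Nrg1, a growth factor (9.66, 5.61 and 16.6 CPM). LPS replicate 3 was the highest for all of these but Zfp811, for which replicate 1 was. Even so, the untreated libraries stayed below: Fpr3 was at 0.0434, 0.146 and 0.102 CPM and Serpina3g at 5.29, 5.01 and 4.70 CPM. The Fpr3 gene model overlaps that of Fpr2, so its reads are uncertain. For Zfp811 the ratio of summed counts was 253.7 (95% interval 86.3 to 1234, counting error only). Falls with the widest untreated spread were Cx3cr1 (46.7, 18.6 and 18.5 CPM), Angptl4, an inhibitor of lipoprotein lipase (35.9, 13.2 and 17.0 CPM), and Mex3b (18.4, 7.495 and 8.59 CPM), each highest in untreated replicate 1, and Cdkn1c (8.07, 18.4 and 20.3 CPM), lowest there. That library also stood at one end of the second principal component, as did LPS replicate 1. Its stromal marker sum was the highest of the untreated libraries, though an LPS library was higher. Whether these go together was not tested.

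Some changed genes were neighbours. Of 12366 tested protein-coding genes 1398 rose and 1507 fell past 2-fold. Along the genome, 64 runs of at least 3 adjacent tested protein-coding genes all rose past 2-fold and 53 such runs all fell. Among these, 15 and 9 runs had at least 4 genes. How many runs would arise by chance from such shares of changed genes was not tested. Several are families of duplicated genes, among them 6 Ifit genes on chromosome 19 (34550694 to 34650009), 6 genes from Ifi204 to Olfr433 on chromosome 1 (173747293 to 174044411), most of them interferon-inducible, 4 Gbp genes on each of chromosomes 3 and 5, and the peptide loading genes Psmb9, Tap1, Psmb8 and Tap2 on chromosome 17. The longest run, 7 genes on chromosome 7 (19156061 to 19296160), is no such family: Gipr, Eml2, Gpr4, Opa3, Vasp, Ppm1n and Rtn2, named after their values were seen. Vasp, an actin polymerase, went from 231, 279.9 and 282 to 2459.5, 3544 and 2739.8 CPM (3.46 ± 0.15), Ppm1n, a protein phosphatase, from 3.25, 3.50 and 3.43 to 85.7, 132 and 75.5 CPM (4.85 ± 0.24) and Rtn2, a reticulon, from 1.21, 1.31 and 2.15 to 29.5, 42.4 and 26.8 CPM (4.40 ± 0.24). Eml2 and Opa3 rose by 2.53 ± 0.17 and 1.57 ± 0.12. Gpr4 and Gipr were near the detection limit, with 15 and 1 counts untreated and 59 and 30 with LPS. None of the 7 gene models overlaps its neighbour, and the gaps run from 385 to 10293 bases. Among falling runs the longest had 5 genes, Ttyh2 to Cd300lb on chromosome 11 (114675431 to 114934386), and Arhgap19 lay in a run of 4 on chromosome 19 with Slit1, Frat1 and Frat2. Genes in a run share a region and may share reads where they are copies or where their models overlap, as those of Psmb9 and Tap1 do.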

How the data were processed

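The deposited table gives, per the file headers, whole-number counts of reads per gene for 12 libraries and a gene length in bases, another deposited value that was used only for RPKM. TopHat2 and mm10 come from the submitters' processing notes; the counting tool, its strand setting and the annotation release are not given in the sources used here. Samples were grouped by genotype and treatment as labelled. Counts as deposited were tested in R 4.3.3 with edgeR 4.0.16: genes passing filterByExpr, TMM scaling, 1 coefficient per group over all 12 libraries (4 groups), quasi-likelihood tests and glmTreat against a log2 fold change of 1, with Benjamini-Hochberg adjustment over all 14286 genes at 0.05. Fold changes carry an SE, and levels are CPM of the scaled library size (n = 3 per group). DESeq2 1.42.0, limma 3.58.1, other scalings, other filters, fewer libraries and a replicate block were alternatives. The fit was tested on simulated data.

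Named genes were Hdac3, Tlr4, Cd14, Ly96 and Myd88, and otherwise those with the largest change in RPKM among genes past 2-fold, the lowest p, the widest spread between replicates, 0 counts in 1 group, or the highest level among held genes. From each of 28 lists and 15 families came called members of lowest p, members called against the majority and, where few, those not called. Held means a mean of at least 100 CPM and a 95% interval of the fold change between 0.8 and its inverse. The comparison, lists and rule were chosen with earlier results of these data known, and some genes the rule names and 1 family are not reported here. Promoter and miRNA sequences are RefSeq's for GRCm38.p6. Where a group had no count, 3 counts stood in for it as a floor, and intervals of count ratios are exact binomial ones; both cover counting error only.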

Additional observations from a re-analysis of the deposited data

How the results depend on the processing

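The scaling changed how many genes were called in each direction. With library totals alone 2086 genes rose and 8242 fell, 945 and 3636 of them past 2-fold. Among named genes called on either scale, Hdac3, Ercc1, Ctsb, Lgmn and Ybx1 changed sign, at -0.59, -0.17, -0.62, -0.62 and -0.64 on the log2 scale. Others, such as Tmem173, Irf4, Jak1 and Erap1, changed sign without being called on either. DESeq2 called 1008 genes falling past 2-fold, fewer than the 1658 of edgeR. With the 6 Hdac3f/f libraries alone 24 genes were held at their level in place of 95. The share of counts in the most abundant genes, higher by 1.87 percentage points with LPS for the top 100, differed by -1.45 for the top 20 and by 6.82 for the top 500. The cause was not tested for any of these. Leaving out each replicate in turn gave 7823 to 8750 called genes, 3638 to 4047 rising, 4179 to 4739 falling, 1463 to 1701 rising and 1456 to 1759 falling past 2-fold, 44 to 89 held, and a difference in the top 100 share of 1.06 to 2.74. A replicate block (replicate number within genotype) called 8893 genes, 4124 rising and 4769 falling, and held 137. Same-numbered libraries of the 2 groups correlated at 0.197, 0.0958 and 0.00256 in their deviations from the group means, and LPS replicates 2 and 3 correlated better with another number, so the numbers were not taken as pairs. For the genes named here, 3538 of 3571 combinations of a gene and a setting kept the call and, where called, its direction. Within that number, values not called on either side could change sign. Counts limit the rest: below 1 CPM the median SE was 0.563, against 0.132 at 100 CPM or more.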

Other observations

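Large gene families held strong movers in both directions while the medians of these families lay between -0.34 and 0.20 on the TMM scale. Of 226 tested solute carriers 60 rose and 81 fell (26.5% and 35.8%), near the 28.0% and 32.1% of all tested genes. Their median was -0.16, and with library totals 39 rose and 138 fell. Slc2a1, the glucose transporter GLUT1, went from 36.3, 36.8 and 41.1 to 496, 588 and 611 CPM (3.89 ± 0.11 on the log2 scale), and Slco3a1, an organic anion transporter, from 23.6, 17.0 and 15.7 to 808, 911 and 949 CPM. Groups were far apart for both. Of 61 Rab GTPases and genes named after them 26 rose and 17 fell (42.6% and 27.9%). The median was 0.07, and with library totals -0.57, with 13 rising and 32 falling. Rab20, a GTPase of the maturing phagosome, rose by 3.55 ± 0.16 and Rab3il1, an exchange factor, fell by 4.11 ± 0.15.

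Among genes of ubiquitin, 16 of 41 Trim genes rose and 16 fell (39.0% each, against 28.0% and 32.1% of all tested genes). With library totals 10 rose and 23 fell. Trim21, an intracellular antibody receptor, rose by 1.97 ± 0.12. Of 43 ubiquitin-specific proteases 8 rose and 11 fell (18.6% and 25.6%), or 4 and 28 with library totals. Usp18, which removes ISG15 and restrains interferon signalling, went from 59.9, 48.0 and 47.1 to 701, 775 and 885 CPM (3.93 ± 0.16). F-box genes rose in 12 of 53 and fell in 14 (22.6% and 26.4%), or 4 and 34 with library totals. Fbxo31 was among the falls (-2.26 ± 0.15). Proton pump subunits, which acidify lysosomes, were divided, 6 rising and 5 falling of 17 (35.3% and 29.4%). Their median was 0.20 (-0.44 with library totals). Atp6v0a1 fell by 1.67 ± 0.14 and Atp6v1e1 rose by 1.21 ± 0.11. Of 16 tetraspanins 2 rose and 5 fell (12.5% and 31.25%), or 1 and 9 with library totals. Tspan3 rose by 2.79 ± 0.15. Mitochondrial ribosomal proteins rose in 14 of 77 and fell in 23 (18.2% and 29.9%), and with library totals 2 rose and 64 fell.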
